A study of Mus musculus with 28 samples.

Results

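The nuclear respiratory chain subunits are the chromosomal genes for the protein parts of complexes I to V of the mitochondrial inner membrane. They were chosen by symbol: Nduf genes with a letter and number for complex I, Sdha to Sdhd for complex II, Uqcr genes and Cyc1 for complex III, Cycs for cytochrome c, Cox4 to Cox8 genes for complex IV and Atp5 genes for complex V. The rule found 86 genes of 39152 symbols, with 35 in complex I, 4 in complex II, 9 in complex III, 20 in complex IV and 17 in complex V, beside Cycs. Ndufa4 and Ndufa4l2 were counted with complex IV, where the Ndufa4 protein sits. Symbols marked as pseudogenes (3) were left out, and Atp5s and Atp5sl match the rule although they are not classical subunits of the ATP synthase.

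RNA was sequenced from left (LV) and right ventricle (RV) of 16 C57BL6 mice to ask how loss of plakophilin 2, a desmosome protein that joins cardiomyocytes, and its replacement by gene therapy change the heart. All animals carried floxed Pkp2 (Pkp2fl/fl). WT animals were Cre-negative littermates given the buffer HBSS. The cKO animals carried a tamoxifen-activated Cre under the αMyHC promoter, which is active in cardiomyocytes, and were given HBSS. Tamoxifen was given to all cKO animals, treated or not, to delete Pkp2. The methods do not state it for WT animals. The treated animals were cKO mice that received TN-401, an AAV9 vector carrying human PKP2, at a dose of 3E13 or 6E13 vg/kg, counted in vector genomes, by a single retro-orbital injection 1 week before tamoxifen, in a study of about 10 weeks. LV held 5 WT, 4 cKO, 4 3E13 and 3 6E13 libraries, and RV held 3 WT, 4 cKO, 2 3E13 and 3 6E13 libraries, each from a different animal within a ventricle, with both ventricles from 12 animals. Animals are named below by their number. The methods describe adult animals matched for age, with body weight and sex spread evenly over the groups. The paper gives a single collection time for this study and none for the cKO animals alone. In its survival studies, cKO mice given HBSS died within weeks of tamoxifen. Whether the cKO hearts were taken earlier than the others, or from survivors, cannot be told here.

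Complex I takes electrons from NADH and complex II from succinate, complex III passes them to cytochrome c, and complex IV hands them to oxygen. The proton gradient that builds up drives the ATP synthase, complex V. The heart burns fuel almost without pause and is packed with mitochondria, so these are among the more abundant mRNAs of cardiomyocytes. Several complex IV subunits exist in a heart and skeletal muscle isoform and in a form found in most tissues: Cox6a2 against Cox6a1, Cox7a1 against Cox7a2, and Cox8b against Cox8a.

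The stretches directly upstream of these 6 isoform genes are shown because the balance of muscle and general forms differed in cKO hearts. Each is 100 bases, 5′ to 3′, ending at the base before the outermost annotated start of the gene in GRCm39 (GENCODE M39). Capitals mark matches to CAGCTG (an E-box, bound by basic helix-loop-helix factors) or to the NRF1 motif, which is present in Cox6a1.
Cox6a2: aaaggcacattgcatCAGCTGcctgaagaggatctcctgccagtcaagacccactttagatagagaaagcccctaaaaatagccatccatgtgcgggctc
Cox6a1: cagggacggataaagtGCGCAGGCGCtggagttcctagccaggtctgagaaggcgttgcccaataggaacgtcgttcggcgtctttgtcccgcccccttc
Cox7a1: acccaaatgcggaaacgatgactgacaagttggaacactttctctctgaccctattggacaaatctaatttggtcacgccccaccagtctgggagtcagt
Cox7a2: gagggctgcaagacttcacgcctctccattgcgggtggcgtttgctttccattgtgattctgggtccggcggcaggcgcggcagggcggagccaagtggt
Cox8b: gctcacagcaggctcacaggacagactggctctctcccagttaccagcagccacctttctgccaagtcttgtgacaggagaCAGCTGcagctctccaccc
Cox8a: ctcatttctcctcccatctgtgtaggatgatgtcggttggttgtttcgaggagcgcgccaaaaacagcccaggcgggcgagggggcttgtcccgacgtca
They lie at chr7:127805560-127805659, minus strand (Cox6a2), chr5:115487051-115487150, minus strand (Cox6a1), chr7:29883469-29883568, plus strand (Cox7a1), chr9:79667163-79667262, minus strand (Cox7a2), chr7:140480360-140480459, minus strand (Cox8b) and chr19:7194998-7195097, minus strand (Cox8a). Both strands of the 200 bases before the canonical start were searched for these motifs and for CCGGAAG (ETS factors), AAGGTCA (estrogen-related receptors) and AAGATGGC (YY1) in the 83 subunit genes that could be placed and in 21751 protein-coding genes. The NRF1 letters were present at 8.43% of the subunit genes and 3.51% of all genes. For the E-box these shares were 10.8% and 9.76%, for ETS 6.02% and 6.29%, for the estrogen-related receptor letters 2.41% and 3.03%, and for YY1 0% and 1.05%. These matches are descriptions of letters and not of bound sites. Cox6a2, Cox6a1, Cox7a1, Cox7a2, Cox8b and Cox8a are protein-coding genes at chr7:127804607-127805559, chr5:115483701-115487050, chr7:29883569-29885503, chr9:79653049-79667162, chr7:140477069-140480359 and chr19:7192515-7194997. No stretch of 31 transcript bases was shared within any of the 3 pairs, so reads could be told apart between partners.

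Estimated reads ran from 19364737 to 39381144 per library. Endogenous Pkp2 stood at 103 to 122 CPM (counts scaled to library size after TMM normalization) in WT libraries and at 29.2 to 55.2 CPM in all others, and the human transgene was at 0 in WT and cKO and at 167 to 535 CPM in treated libraries. The WT RV library of animal 647 stood above the other WT RV libraries in the summed subunits, at 3.22% of non-mitochondrial counts against 2.58% and 2.76%. The cKO RV libraries of animals 180 and 257 held the atrial muscle mRNA Myl7 at 87.9 and 47.3 CPM, while no other RV library passed 2.19 CPM.

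In WT LV the subunits together made up 2.56% ± 0.03 (SD, n = 5) of non-mitochondrial counts. Per length, as TPM (length-scaled abundance), complex V held 30.9% ± 0.44 of the subunits' mRNA, complex IV 30.2% ± 0.75, complex I 24.1% ± 0.60, complex III 11.002% ± 0.21 and complex II 3.37% ± 0.13. The highest level of each complex in WT LV was 1159 ± 96.9 TPM for Atp5b, the catalytic β subunit of the ATP synthase, 1070 ± 92.0 TPM for Cox6c, 595 ± 58.3 TPM for Uqcrb, 506 ± 30.5 TPM for Ndufa12 and 250.4 ± 21.6 TPM for Sdha, the flavoprotein of succinate dehydrogenase. Cycs stood at 98.7 ± 7.46 TPM. Cox6a2 (829.2 ± 63.8 TPM), Cox7a1 (449 ± 26.4 TPM) and Cox8b (536 ± 44.7 TPM) each stood above its general partner, with Cox6a1 at 49.2 ± 5.85, Cox7a2 at 245 ± 24.98 and Cox8a at 136 ± 9.86 TPM. The hypoxia-linked Cox4i2 held 0.732% ± 0.08 of the Cox4 mRNA and the testis form Cox6b2 0.269% ± 0.10 of the Cox6b mRNA.

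Some members were at or near 0. Of the testis forms, Cox8c had 0 counts in every library, where a count of 0 allows up to 3 counts per library, and Cox7b2 was at no more than 0.180 CPM. Ndufa4 and Ndufa9, which most tissues express strongly, were listed at no more than 0.762 CPM and 1.24 CPM in any library. No fold is given for Ndufa9, which passed the LV filter through a few libraries, and its fit is kept out of the ranges below. After the filter on low counts 83 of the 86 members remained in LV and 82 in RV.

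Loss of plakophilin 2 lowered nearly the whole nuclear set in both ventricles. In LV 75 of 83 members fell in cKO against WT and 0 rose, where 16.1% of 16410 genes were called lower and 19.7% higher at an adjusted p below 0.05 (edgeR quasi-likelihood F test, Benjamini-Hochberg over all genes). In RV 76 of 82 fell and 1 rose, where 17.6% of 17307 genes were called lower and 19.8% higher. The median log2 fold change of the members was -0.78 in LV and -1.26 in RV, beside 0.05 and 0.06 over all genes. Every cKO library was below every WT library for 72 members in LV and 73 in RV, where this held for 14.4% and 19.1% of all genes. Of the members called lower, 74 were called in both ventricles, which is 98.7% of the LV set and 97.4% of the RV set. With nearly all members called in each ventricle, a large overlap follows from the counts alone. The same cKO animals also gave both ventricles, so the overlap is not an independent repeat. Expressed as a share of the WT mean, the median member stood at 58.3% in cKO LV and 41.6% in cKO RV. These are bulk samples, in which fewer cardiomyocytes and less of these mRNAs per cardiomyocyte cannot be told apart.

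**Figure D1:**
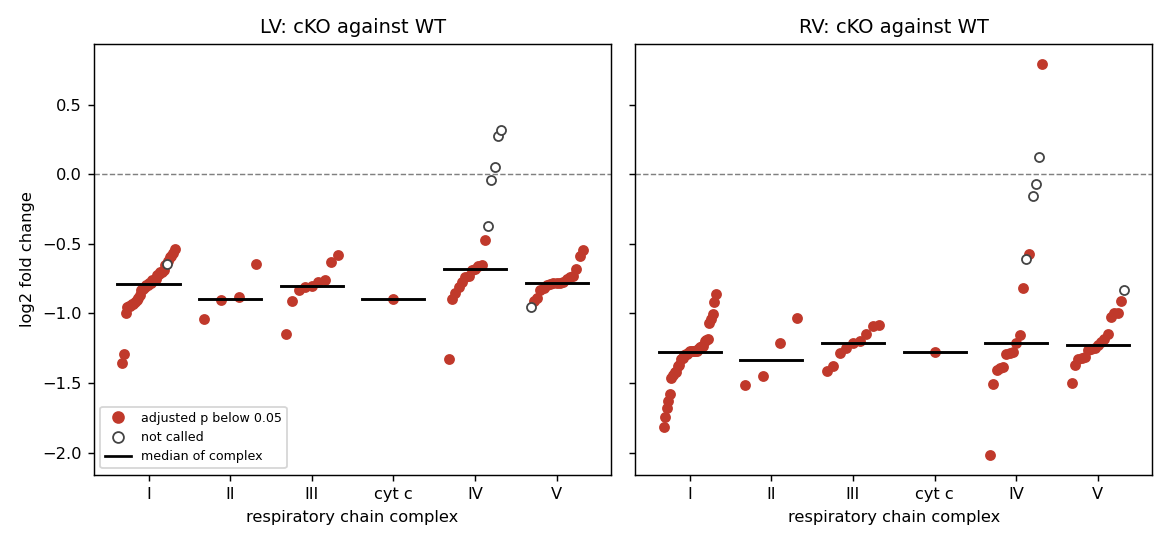
Log2 fold change of each tested subunit in cKO against WT, by complex, in LV (left) and RV (right), with filled points for an adjusted p below 0.05, open points for members not called and bars for the median of each complex; Ndufa9 is not drawn. Complexes I, II, III and V lie below zero in both ventricles, with medians from -0.89 to -0.78 in LV and from -1.33 to -1.21 in RV, while complex IV spreads up to 0.32 in LV and 0.79 in RV.

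All 5 complexes took part in the fall. In complex I 33 of 35 tested members fell in LV (median -0.78) and 34 of 34 in RV (median -1.27). The 4 succinate dehydrogenase subunits of complex II all fell, with medians of -0.89 in LV and -1.33 in RV. All 9 members of complex III fell, with medians of -0.80 and -1.21. In complex V 16 of 17 fell in either ventricle, with medians of -0.78 and -1.22. Complex IV stood out by its spread: 12 of 17 fell in each ventricle, with medians of -0.68 and -1.21. In the make-up of the set per length, complex I was at 24.1% ± 0.60 of the subunits' TPM in WT LV and 23.4% ± 0.47 in cKO LV, and at 24.3% ± 0.79 in WT RV and 22.6% ± 0.53 in cKO RV. Complex IV was at 30.2% ± 0.75 and 31.2% ± 1.03 in LV, and complex V at 30.9% ± 0.44 and 31.2% ± 0.36. No test was made between complexes.

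In complex I the deepest fall in both ventricles was that of Ndufs8, an iron-sulfur subunit of the arm that takes electrons from NADH. In LV its level was 11.2, 13.2, 15.0, 16.6 and 17.5 CPM in the WT libraries and 3.00, 4.48, 6.09 and 9.45 CPM in cKO. In RV it was 15.5, 17.8 and 20.2 CPM in WT and 3.45, 4.57, 6.10 and 6.12 CPM in cKO. WT and cKO did not overlap in either ventricle. The log2 fold changes were -1.35 ± 0.25 (SE) in LV, with an adjusted p of 0.000754, and -1.82 ± 0.24 in RV, with an adjusted p of 0.000177. Ndufs4, an accessory subunit whose loss causes Leigh syndrome, changed by -1.29 ± 0.19 in LV (adjusted p = 0.000154) and -1.44 ± 0.20 in RV. Ndufa12, the most abundant complex I member per length, changed by -0.999 ± 0.15 and -1.63 ± 0.23. Ndufs7 had the smallest adjusted p of the complex in RV, 0.000173, at -1.57 ± 0.21, and -0.94 ± 0.20 in LV. Ndufa11 was the least lowered member in RV, at -0.86 ± 0.25, with -0.57 ± 0.18 in LV. Ndufa13 missed the threshold in LV (-0.65 ± 0.29, adjusted p = 0.0985) and fell in RV (-1.19 ± 0.34, adjusted p = 0.0166).

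Complex II has no mitochondrially encoded part, and each of its subunits fell. Sdha was at 624.9, 718, 820, 836 and 853 CPM in WT LV and at 205, 370, 411 and 513 CPM in cKO LV. In RV it was at 785, 955 and 1054 CPM in WT and at 199, 331, 333 and 439 CPM in cKO. The lowest WT library stood above the highest cKO library in both ventricles. Its log2 fold change was -1.04 ± 0.21 in LV (adjusted p = 0.00172) and -1.52 ± 0.24 in RV (adjusted p = 0.000482). Sdhb, the iron-sulfur subunit, changed by -0.88 ± 0.18 and -1.45 ± 0.24, Sdhc, a membrane anchor, by -0.91 ± 0.17 and -1.21 ± 0.19, and Sdhd, the other anchor, by -0.64 ± 0.22 and -1.03 ± 0.22. Sdhd was the least lowered of the 4 in both ventricles.

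In complex III the deepest fall in LV was that of Cyc1, the cytochrome c1 subunit. It stood at 143, 174, 188, 191 and 203 CPM in WT LV and at 42.5, 90.2, 95.0 and 96.6 CPM in cKO LV, a log2 change of -1.15 ± 0.19 at an adjusted p of 0.000344. The cKO library of animal 177 was far below the other 3. In RV Cyc1 changed by -1.20 ± 0.28, and Uqcrq, at -1.41 ± 0.24, was the most lowered member. Uqcrc1, a core subunit, changed by -0.91 ± 0.16 and -1.37 ± 0.21 and had the smallest adjusted p of the complex in RV. Uqcr10 was the least lowered, at -0.58 ± 0.19 and -1.09 ± 0.23. Uqcrb changed by -0.76 ± 0.17 and -1.25 ± 0.25. Cycs, the mobile carrier between complexes III and IV, was at 249 to 301 CPM in WT LV and 80.0, 148, 170.3 and 209 CPM in cKO LV. Its log2 change was -0.90 ± 0.19 in LV, at an adjusted p of 0.00196, and -1.28 ± 0.22 in RV, at 0.000899.

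In complex V the smallest adjusted p in LV was that of Atp5e, the ε subunit of the F1 head. It was at 36.8, 40.9, 41.4, 41.7 and 44.1 CPM in WT LV and at 18.1, 21.1, 25.8 and 27.3 CPM in cKO LV, without overlap. Its log2 fold change was -0.83 ± 0.11 in LV (adjusted p = 7.25e-05) and -1.50 ± 0.22 in RV. Atp5b, the most abundant member per length in WT LV, changed by -0.74 ± 0.19 and -0.997 ± 0.24. Atp5d, the δ subunit, was the least lowered in LV at -0.55 ± 0.16 and changed by -0.999 ± 0.23 in RV. Atp5g2, a c-ring gene, was the single member not called, at -0.96 ± 0.48 in LV (adjusted p = 0.137) and -0.83 ± 0.89 in RV (adjusted p = 0.507), with 88.3% of its transcript words of 31 bases shared with other genes. Such sharing was also above 50% for Atp5g1, Atp5l, Atp5o, Cox7a2l, Cox7c, Ndufb8 and Uqcrb, whose split of reads with the sharing genes is uncertain. For Atp5o the gene that shared most words was Donson, with 257 of 500 words. The words were counted in GENCODE M39, a later release than the authors used.

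The 3 muscle isoforms of complex IV fell, while of their general partners Cox7a2 fell and Cox6a1 and Cox8a were not called. Cox6a2 was at 458, 495, 497, 513 and 535 CPM in WT LV and 146, 261, 288 and 378 CPM in cKO LV, and at 485, 581 and 769 CPM in WT RV and 132, 199, 210.1 and 321 CPM in cKO RV. Every cKO library was below every WT library. Its log2 fold change was -0.90 ± 0.22 in LV (adjusted p = 0.00584) and -1.51 ± 0.27 in RV (adjusted p = 0.00111). Its partner Cox6a1 was at 19.4 to 25.1 CPM in WT LV and 19.0, 22.6, 24.5 and 26.6 CPM in cKO LV, and at 21.7, 24.4 and 26.3 CPM in WT RV and 18.9, 23.4, 30.9 and 32.2 CPM in cKO RV. The Cox6a1 groups overlapped in both ventricles, with log2 fold changes of 0.05 ± 0.12 (adjusted p = 0.767) and 0.12 ± 0.17 (adjusted p = 0.616).

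Cox8b and Cox8a gave the same picture. Cox8b was at 121, 133, 134, 143 and 145 CPM in WT LV and 36.5, 70.0, 84.9 and 108 CPM in cKO LV, and at 126, 162 and 245 CPM in WT RV and 39.7, 64.6, 65.3 and 98.6 CPM in cKO RV. Without overlap, its log2 change was -0.86 ± 0.21 in LV, at an adjusted p of 0.00479, and -1.41 ± 0.28 in RV, at 0.00198. Cox8a was at 41.2 to 46.6 CPM in WT LV and 37.6, 40.9, 44.9 and 47.8 CPM in cKO LV, and at 42.7, 47.1 and 70.7 CPM in WT RV and 39.9, 52.2, 52.9 and 58.6 CPM in cKO RV. These groups overlapped, with log2 fold changes of -0.04 ± 0.08 (adjusted p = 0.733) and -0.07 ± 0.18 (adjusted p = 0.789) on the TMM scale. On log2(TPM + 1), where the median gene moved by 0.37 in LV and 0.54 in RV, Cox8a was called higher at 0.51 and 0.88 and Cox6a1 at 0.63 and 0.91.

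Cox7a1 had the deepest fall of complex IV, and here the general partner fell as well. Cox7a1 was at 133, 133, 152, 155 and 169 CPM in WT LV and 36.02, 58.9, 65.4 and 76.6 CPM in cKO LV, and at 131, 209.8 and 266 CPM in WT RV and 30.8, 44.7, 49.6 and 74.9 CPM in cKO RV. Its log2 fold change was -1.32 ± 0.20 in LV (adjusted p = 0.00017) and -2.02 ± 0.30 in RV (adjusted p = 0.000358), without overlap. Cox7a2 changed by -0.68 ± 0.15 (adjusted p = 0.00269) and -1.21 ± 0.24 (adjusted p = 0.00217). In the related Cox7a2l the change was -0.37 ± 0.18 in LV (adjusted p = 0.124) and -0.57 ± 0.18 in RV (adjusted p = 0.0285).

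**Figure D2:**
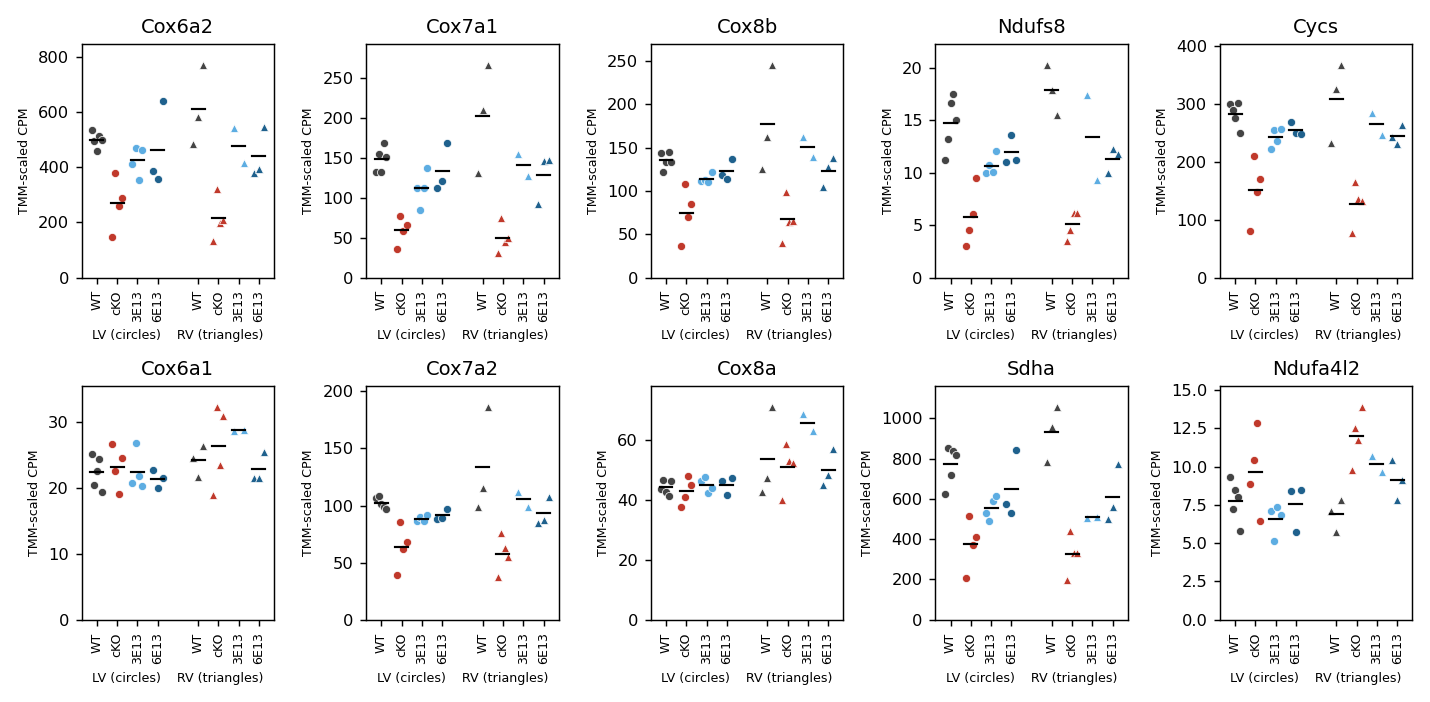
TMM-scaled CPM of 10 subunits in every library, with LV as circles and RV as triangles, grouped as WT, cKO and cKO given 3E13 or 6E13 vg/kg of TN-401, and bars for group means. Cox6a2, Cox7a1 and Cox8b are lower in all cKO libraries than in all WT libraries, while Cox6a1 and Cox8a overlap between the groups.

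The ratio of the muscle to the general isoform within each library does not depend on how libraries are scaled. Cox6a2 made up 94.4% ± 0.54 of the Cox6a mRNA per length in WT LV and 88.7% ± 5.28 in cKO LV, with 80.9, 90.01, 91.3 and 92.5% in the 4 cKO libraries and 93.9 to 95.1% in WT. In RV it made up 94.8% ± 0.97 in WT (93.7 to 95.5%) and 85.5% ± 2.23 in cKO (83.5 to 87.9%). The cKO libraries were below all WT libraries in both ventricles. On the log2 ratio of TPM the difference between cKO and WT was -1.01 in LV (two-sided exact permutation test, p = 0.00794, adjusted over the 6 ratios tested 0.0238) and -1.63 in RV (exact p = 0.0286, adjusted 0.0286). The RV design of 4 against 3 cannot go below 0.0286.

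Cox7a1 made up 64.7% ± 3.27 of the Cox7a pair in WT LV (60.4 to 69.1%) and 52.4% ± 0.81 in cKO LV (51.2 to 53.0%). In RV it made up 64.6% ± 4.65 in WT (60.4 to 69.6%) and 49.7% ± 3.21 in cKO (45.6 to 53.0%). The groups did not overlap, and the log2 ratio differed by -0.74 in LV (exact permutation p = 0.00794, adjusted 0.0238) and -0.89 in RV (exact p = 0.0286, adjusted 0.0286). Cox8b made up 79.7% ± 1.93 of the Cox8 pair in WT LV (77.1 to 82.1%) and 66.1% ± 10.2 in cKO LV, with 53.4, 63.3, 70.5 and 77.3% in the single libraries, of which the highest overlapped WT. In RV the shares were 80.6% ± 2.21 in WT (78.1 to 82.2%) and 59.2% ± 4.92 in cKO (53.4 to 65.4%), without overlap. The log2 ratio differed by -0.98 in LV (exact permutation p = 0.0159, adjusted 0.0286) and -1.52 in RV (exact p = 0.0286, adjusted 0.0286).

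In treated hearts the mean muscle isoform shares stood between the cKO and WT means in both ventricles, given here without a test. Cox6a2 made up 93.5% ± 0.87 with 3E13 and 93.8% ± 1.34 with 6E13 in LV, and 92.1% ± 1.43 and 93.4% ± 0.56 in RV. Cox7a1 made up 61.2% ± 5.45 and 64.7% ± 2.76 in LV, and 61.5% ± 1.67 and 61.9% ± 5.63 in RV. Cox8b made up 76.6% ± 1.43 and 78.3% ± 1.19 in LV, and 73.3% ± 1.53 and 74.5% ± 2.13 in RV. In RV the highest Cox8b share of a treated library, 76.6%, was below the lowest WT share of 78.1%, while every treated library was above every cKO library.

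**Figure D3:**
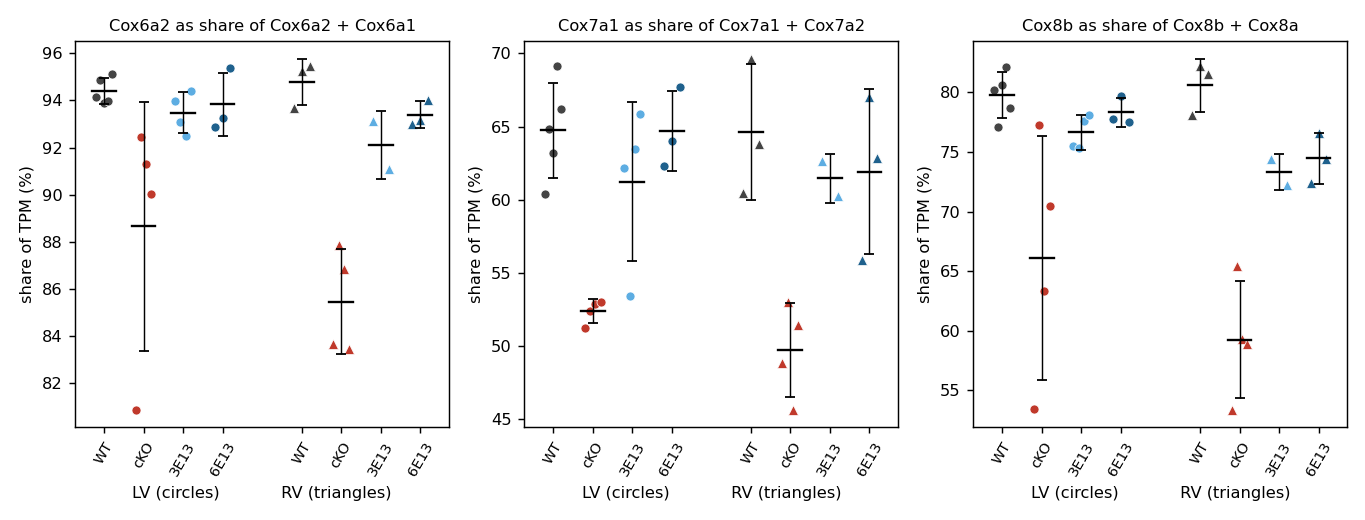
Share of the muscle isoform in the summed TPM of each pair (%), per library, with LV as circles and RV as triangles, bars for means and error bars for the SD. The vertical axes do not start at 0. Within each ventricle the cKO mean is the lowest, with cKO libraries from 80.9 to 92.5% for Cox6a2, 45.6 to 53.0% for Cox7a1 and 53.4 to 77.3% for Cox8b, and 1 cKO LV library overlaps WT and 3E13 for Cox8b.

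In the remaining complex IV pairs Cox4i1, Cox4i2 and Cox6b1 were below zero in both ventricles, while the barely detected Cox6b2 was not called in either. Cox4i1, the main form of subunit 4, changed by -0.73 ± 0.18 in LV (adjusted p = 0.00458) and -1.27 ± 0.25 in RV (adjusted p = 0.0022), while Cox4i2 was at -0.66 ± 0.25 in LV (adjusted p = 0.0498) and -0.61 ± 0.33 in RV (adjusted p = 0.173). Cox6b1 changed by -0.47 ± 0.14 and -0.81 ± 0.20 and Cox6b2, at a mean of 0.521 CPM in WT LV, by 0.27 ± 0.47 and -0.16 ± 0.63. Cox6c, the most abundant member of the complex, changed by -0.65 ± 0.22 (adjusted p = 0.0319) and -1.29 ± 0.29 (adjusted p = 0.00489). Ndufa4l2, a hypoxia-induced relative of Ndufa4, was the single member that rose. It was at 5.75, 7.13 and 7.82 CPM in WT RV and at 9.77, 11.8, 12.5 and 13.9 CPM in cKO RV, without overlap, at 0.79 ± 0.17 on the log2 scale and an adjusted p of 0.00345. In LV its groups overlapped, at 5.79 to 9.31 CPM in WT and 6.48 to 12.9 CPM in cKO, with 0.32 ± 0.20 (adjusted p = 0.237).

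The cKO animals differed among themselves in the same order across the set. In LV the library of animal 177 was the lowest of the 4 for 79 of 82 members and that of animal 180 the highest for 71, and in RV 177 was the lowest for 80 and 180 the highest for 77 of 82. The median member stood at 33.9% of the WT mean in animal 177, 54.3% in 257, 66.7% in 264 and 78.1% in 180 in LV. In RV these medians were 25.9%, 40.4%, 42.3% and 58.0%. Leaving out single libraries gave 69 to 76 members called lower in LV and 72 to 77 in RV, and without animal 647 the RV count was 72 with a median of -1.10.

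**Figure D4:**
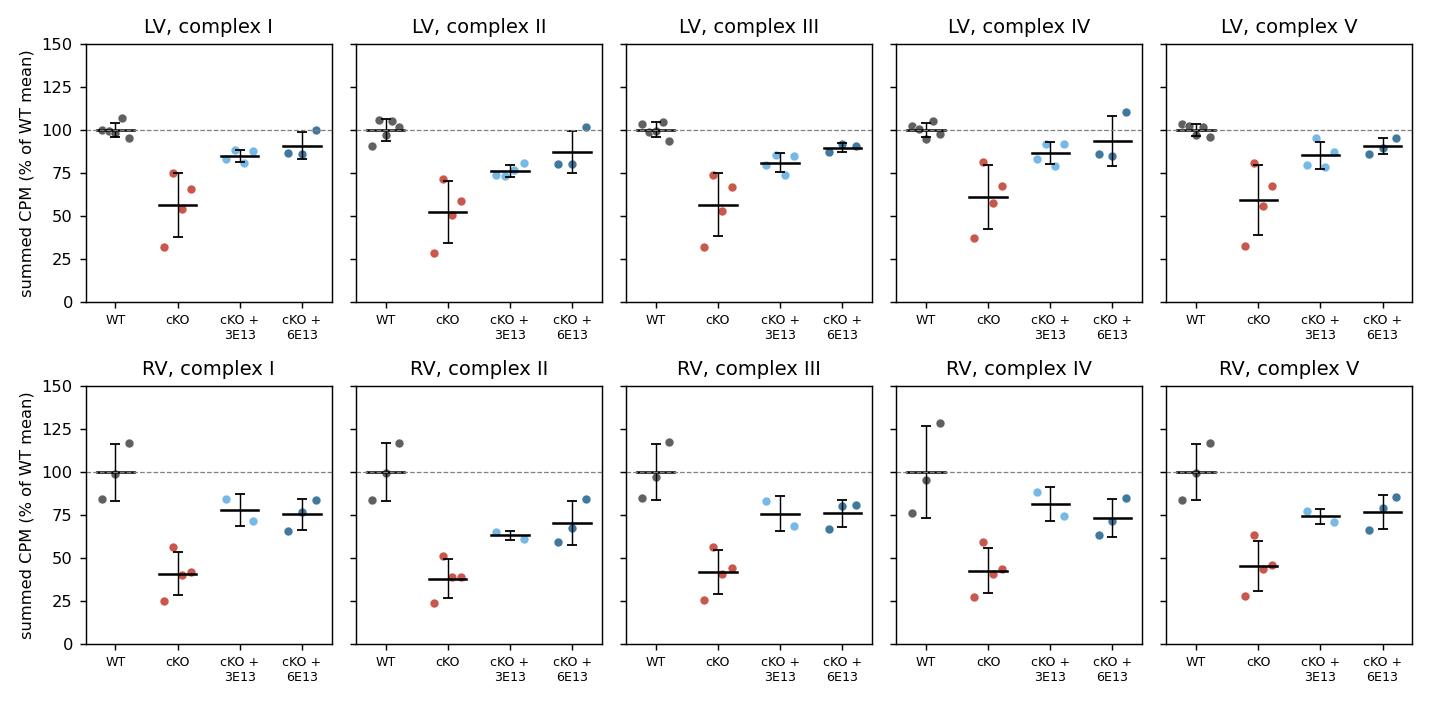
Summed CPM of the tested members of each complex in every library, as a percentage of the WT mean of that ventricle, with bars for means and error bars for the SD. The cKO points are spread widely, with animal 177 lowest in each complex, and the means of both treated groups lie between the cKO and WT means in every complex and ventricle.

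Other genes of the respiratory chain from fixed lists moved alongside. Of the 13 mitochondrially encoded subunits, which build complexes I, III, IV and V together with the nuclear ones, 10 fell in LV and 12 in RV, with medians of -0.98 and -1.62. For mt-Nd3 the change was -1.17 ± 0.19 in LV and -1.89 ± 0.28 in RV, and for mt-Nd4 -1.05 ± 0.23 and -1.56 ± 0.28. Of 15 complex I assembly factors 12 fell in LV (median -0.70) and 13 in RV (-0.96), with Ndufaf4 at -0.997 ± 0.14 and -1.38 ± 0.16 and Ecsit at -0.94 ± 0.14 and -1.37 ± 0.18. Of 6 complex III assembly factors 5 fell in LV (median -0.78) and 6 in RV (-1.24), with Uqcc1 at -1.28 ± 0.15 and -1.53 ± 0.16 and the chaperone Bcs1l at -0.91 ± 0.12 and -1.31 ± 0.16.

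Of 25 complex IV assembly factors 13 fell in LV (median -0.48) and 18 in RV (-0.80), with Taco1, an activator of mt-Co1 translation, at -1.05 ± 0.15 and -1.55 ± 0.19 and Coa7 at -1.20 ± 0.17 and -1.35 ± 0.19. Neither of the 2 tested complex II assembly factors passed, with Sdhaf1 at -0.38 ± 0.16 and -0.52 ± 0.24 and Sdhaf2 at -0.31 ± 0.27 and -0.21 ± 0.33. Of 4 complex V assembly factors 2 fell in LV and 3 in RV, where 1 rose. Tmem70 changed by -0.99 ± 0.10 and -1.20 ± 0.15 and Tmem242 by -0.50 ± 0.15 and -0.77 ± 0.17. The 1 that rose in RV was Atpaf2, at 3.56 ± 0.74, with -0.55 ± 0.72 in LV. In RV it was at 0.246 to 1.13 CPM in WT and at 1.16, 10.3, 11.5 and 12.1 CPM in cKO. It was at 0.359 and 1.01 CPM with 3E13 and at 12.5 to 14.4 CPM with 6E13, so it did not follow the treatment groups. Of the carriers and porins that move ATP, ADP and phosphate 5 of 6 fell in LV (median -0.71) and 5 of 7 in RV (-1.06), with the phosphate carrier Slc25a3 at -0.77 ± 0.16 and -1.14 ± 0.19 and the porin Vdac3 at -0.73 ± 0.13 and -1.05 ± 0.17.

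Markers of several cell types changed as well. Of 10 cardiomyocyte markers 5 fell in LV (median -0.61) and 7 in RV (-0.87), with the troponin Tnni3 at -1.15 ± 0.25 and -1.80 ± 0.28 and the ventricular light chain Myl2 at -1.05 ± 0.23 and -1.65 ± 0.25. Not called in LV were Actn2 (-0.28 ± 0.19), Mybpc3 (-0.35 ± 0.29), Tnnt2 (-0.37 ± 0.27), Myoz2 (-0.17 ± 0.30) and Ryr2 (-0.56 ± 0.24). In RV Actn2, Mybpc3 and Myoz2 were not called. Their summed level was 100914 to 110652 CPM in WT LV and 34448 to 82643 CPM in cKO LV, and 96171 to 111209 CPM in WT RV and 34261 to 68741 CPM in cKO RV. This sum is not scaled for length and is mostly the very long Ttn, at a mean of 70152 CPM in WT LV and 44695 CPM in cKO LV. The share that follows is therefore largely a comparison with Ttn. The subunits' summed CPM was 17.8% ± 0.51 of that marker sum in WT LV and 16.8% ± 1.197 in cKO LV, with ranges of 17.0 to 18.4% and 15.0 to 17.5% that overlapped. In RV it was 18.9, 19.5 and 24.6% in WT, with the highest value in animal 647, and 17.5% ± 1.81 in cKO (15.2 to 18.9%).

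Of 8 fibroblast markers 7 rose in LV (median 1.22) and 8 in RV (1.95), with Pdgfra at 1.21 ± 0.11 and 1.61 ± 0.14 and Col3a1 at 3.55 ± 0.36 and 4.73 ± 0.60. Their summed level was 582 to 719 CPM in WT LV and 2441 to 6335 CPM in cKO LV, and 693 to 803 CPM in WT RV and 4675 to 11593 CPM in cKO RV, with no listed gene at 0. Of 7 macrophage markers 6 rose in each ventricle, with medians of 2.16 and 2.01, C1qa at 1.76 ± 0.18 and 2.28 ± 0.21 and C1qb at 2.16 ± 0.20 and 2.34 ± 0.24. Their summed level was 103 to 131 CPM in WT LV and 216 to 889.8 CPM in cKO LV. The part of these cell types in the subunits' fall and in the isoform shares was not tested. Among 6 endothelial markers 1 fell and 2 rose in LV and 1 fell and 1 rose in RV, with Pecam1 at 0.42 ± 0.09 and 0.21 ± 0.15 and Kdr at -0.76 ± 0.18 and -0.77 ± 0.24.

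Smooth muscle and pericyte markers rose for 1 of 6 in LV and 3 of 6 in RV, with Pdgfrb at 0.59 ± 0.13 and 1.01 ± 0.15 and Cspg4 at 0.27 ± 0.13 and 0.68 ± 0.18. Of the T and B cell markers 1 of 4 rose in LV and 2 of 4 in RV, with Cd3e at 1.35 ± 0.49 and 2.06 ± 0.44 and Cd79a at -0.83 ± 0.55 and 0.40 ± 0.72. Of the 4 adipocyte markers only Fabp4 was tested in LV, and Fabp4 and Cidec in RV, and none was called. Fabp4 was at 0.35 ± 0.23 and 0.15 ± 0.35 and Cidec in RV at 3.96 ± 1.79 (adjusted p = 0.105). In the cKO RV library of animal 180 Cidec was at 5.47 CPM, and at no more than 0.842 CPM in any other RV library. Adipoq, which was not tested, was at 3.10 CPM in that library and at no more than 0.222 CPM in any other RV library. Plin1 was at 0. The 2 tested atrial muscle markers rose in LV, with Nppa at 3.06 ± 0.51 and Myl4 at 1.04 ± 0.33, and all 5 were called higher in RV, with Nppa at 4.70 ± 0.81 and Myl4 at 6.53 ± 1.45. In the cKO RV libraries of animals 177, 180, 257 and 264 Myl4 was at 7.62, 186, 165 and 1.78 CPM and Nppa at 304, 928, 1069 and 185 CPM. Without animals 180 and 257 Myl4 was at 2.26 ± 0.53 (adjusted p = 0.0082) and Nppa at 3.34 ± 0.66 (adjusted p = 0.00316), Myl7 was not called (adjusted p = 0.386) and the other 2 did not pass the low-count filter. The summed atrial markers ran from 19.2 to 31.9 CPM in WT RV and from 187 to 1726 CPM in cKO RV. Without the 2 cKO RV libraries with most Myl7, 76 subunits were still called lower, with a median of -1.55.

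The comparison rests on a scale. With limma on log2(TPM + 1), 25 members were called lower and 3 higher in LV, where 3.53% of genes were called lower and 43.9% higher, and 40 lower and 4 higher in RV, where 3.15% and 54.8% were. With mitochondrial transcripts removed first 44 were lower and 3 higher in LV, at backgrounds of 5.61% and 33.4%, and 71 lower and 3 higher in RV, at 6.38% and 35.9%. The member medians were then -0.27 and -0.41, and -0.45 and -0.77, while the median of all genes moved to 0.37 and 0.54, and to 0.31 and 0.39.

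The fall was larger in RV than in LV for most members, but no single member passed the test of that difference. In the 12 animals with both ventricles, with the animal as a block, the cKO effect in RV minus that in LV was below zero for 80 of 84 members, with a median of -0.47 against -0.02 over 17981 genes. By the edgeR test 0 members were called, at a background of 0.0111% of genes called, and 56 members had an unadjusted p below 0.05, as did 10.4% of all genes. With limma-voom and the animal as a block 0 were called and 59 had an unadjusted p below 0.05. Cox7b gave the smallest adjusted p, at -0.69 ± 0.16 (adjusted p = 0.194), and Sdha was at -0.42 ± 0.11 (adjusted p = 0.240), Cox6a2 at -0.62 ± 0.17 (adjusted p = 0.241) and Cox7a1 at -0.64 ± 0.21 (adjusted p = 0.323). Cox6a1 was at 0.02 ± 0.23 and Cox8a at -0.04 ± 0.15. Without animal 647 the median was -0.28 and 27 members had an unadjusted p below 0.05.

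Between the ventricles of WT hearts no subunit passed the test. By the edgeR test with the animal as a block 0 of 84 members were called, at a background of 0.00556%, and 5 had an unadjusted p below 0.05, beside 8.56% of all genes, while limma-voom called 0 with 8 below 0.05. The median RV minus LV difference was 0.14, and without animal 647 it was -0.04.

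In the model of all 4 groups many of the subunits were called higher with TN-401 than in cKO. Fitted on the 2 groups compared alone, 0 members were called with 3E13 in either ventricle or with 6E13 in LV. The counts that follow are from the model of all 4 groups. With 3E13 vg/kg 23 of 83 members rose in LV and 0 fell, at a background of 5.52% of genes called higher and 6.25% lower, and 39 of 82 rose in RV, at a background of 4.77% higher and 3.83% lower. With 6E13 vg/kg 49 of 83 rose in LV, at a background of 8.65% higher and 8.16% lower, and 59 of 82 in RV, at 11.2% and 10.9%. None fell. The medians of the members were 0.54 (LV) and 0.92 (RV) with 3E13 and 0.65 and 0.85 with 6E13, beside -0.03, -0.02, -0.04 and -0.04 over all genes. The comparisons of both doses use the same cKO libraries, and those with WT the same WT libraries. Every member called higher with either dose in either ventricle was also called lower in cKO against WT there. This was likely from the outset, since nearly all members were called lower and the same cKO libraries enter both comparisons. The median member stood at 84.99% of the WT mean with 3E13 and 91.3% with 6E13 in LV, and at 79.5% and 74.9% in RV. Without WT animal 647 the RV shares were 89.8% and 84.1%, beside 46.7% in cKO.

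By complex, 12 of 35 complex I members rose with 3E13 and 22 with 6E13 in LV, and 23 and 28 of 34 in RV. Of the 4 complex II subunits 0 and 3 rose in LV and 2 and 4 in RV. In complex III 2 and 6 of 9 rose in LV and 3 and 6 in RV, in complex IV 3 and 8 of 17 in LV and 4 and 9 in RV, and in complex V 5 and 9 of 17 in LV and 6 and 11 in RV. Cycs rose in all 4 comparisons, by 0.67 ± 0.20 and 0.75 ± 0.21 in LV and 1.06 ± 0.24 and 0.95 ± 0.22 in RV. The complex medians lay between 0.47 and 0.75 in LV and between 0.69 and 0.97 in RV.

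Cox7a1 gave the largest rise of the called members in both doses in LV and in RV. In LV it was at 84.5, 112, 112 and 138 CPM with 3E13 and 112, 121 and 169 CPM with 6E13, above every cKO library. In RV it was at 127 and 154 CPM with 3E13 and 91.9, 147 and 148 CPM with 6E13, also above every cKO library. Its log2 fold changes against cKO were 0.92 ± 0.20 (adjusted p = 0.0123) and 1.18 ± 0.22 (adjusted p = 0.00294) in LV and 1.495 ± 0.33 (adjusted p = 0.0239) and 1.37 ± 0.30 (adjusted p = 0.00763) in RV. Cox6a2 was at 355, 410, 464 and 470.1 CPM with 3E13 and 355, 387 and 641 CPM with 6E13 in LV, overlapping the highest cKO library. It missed the threshold with 3E13 in LV (0.66 ± 0.23, adjusted p = 0.0752) and rose with 6E13 (0.78 ± 0.25, adjusted p = 0.0429), and in RV it rose by 1.15 ± 0.30 and 1.03 ± 0.27. Cox8b was at 0.61 ± 0.22 with 3E13 in LV (adjusted p = 0.0768) and rose by 0.72 ± 0.23 with 6E13 in LV and by 1.17 ± 0.30 and 0.88 ± 0.28 in RV.

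Among complex I members Ndufa12 rose by 0.83 ± 0.16 and 0.78 ± 0.17 in LV and by 1.404 ± 0.25 and 1.12 ± 0.23 in RV. Ndufs8 was at 9.91, 10.0, 10.7 and 12.02 CPM with 3E13 and 10.98, 11.2 and 13.6 CPM with 6E13 in LV, above all 4 cKO libraries. It rose by 0.89 ± 0.26 and 1.05 ± 0.27 in LV and by 1.399 ± 0.27 and 1.16 ± 0.24 in RV. Ndufs4 rose by 0.85 ± 0.20 and 0.93 ± 0.21 in LV and by 0.97 ± 0.22 and 1.096 ± 0.20 in RV. Ndufa5 was at 0.66 ± 0.24 with 3E13 in LV (adjusted p = 0.084) and rose in the other 3 comparisons, by 1.48 ± 0.28 with 3E13 in RV. Ndufb2 rose by 0.51 ± 0.14 and 0.68 ± 0.15 in LV and Ndufb3 by 1.08 ± 0.23 with 3E13 in RV. Ndufs1, the largest subunit of the complex, was at 0.60 ± 0.20 with 3E13 in RV (adjusted p = 0.0883) and rose by 0.92 ± 0.18 with 6E13.

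Sdha rose with 6E13 in both ventricles, by 0.79 ± 0.24 in LV and 0.91 ± 0.24 in RV, and not with 3E13, at 0.57 ± 0.22 (adjusted p = 0.104) and 0.64 ± 0.26 (adjusted p = 0.145). The difference between the doses for Sdha did not pass the test. Cyc1 rose by 0.84 ± 0.20 and 0.93 ± 0.21 in LV and by 1.04 ± 0.28 with 6E13 in RV. In complex V Atp5e rose by 0.53 ± 0.12 and 0.65 ± 0.12 in LV and by 0.89 ± 0.25 and 0.87 ± 0.22 in RV. Atp5f1, the b subunit of the stalk, rose by 0.58 ± 0.18 and 0.71 ± 0.19 in LV and by 0.89 ± 0.23 and 0.98 ± 0.20 in RV.

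**Figure D5:**
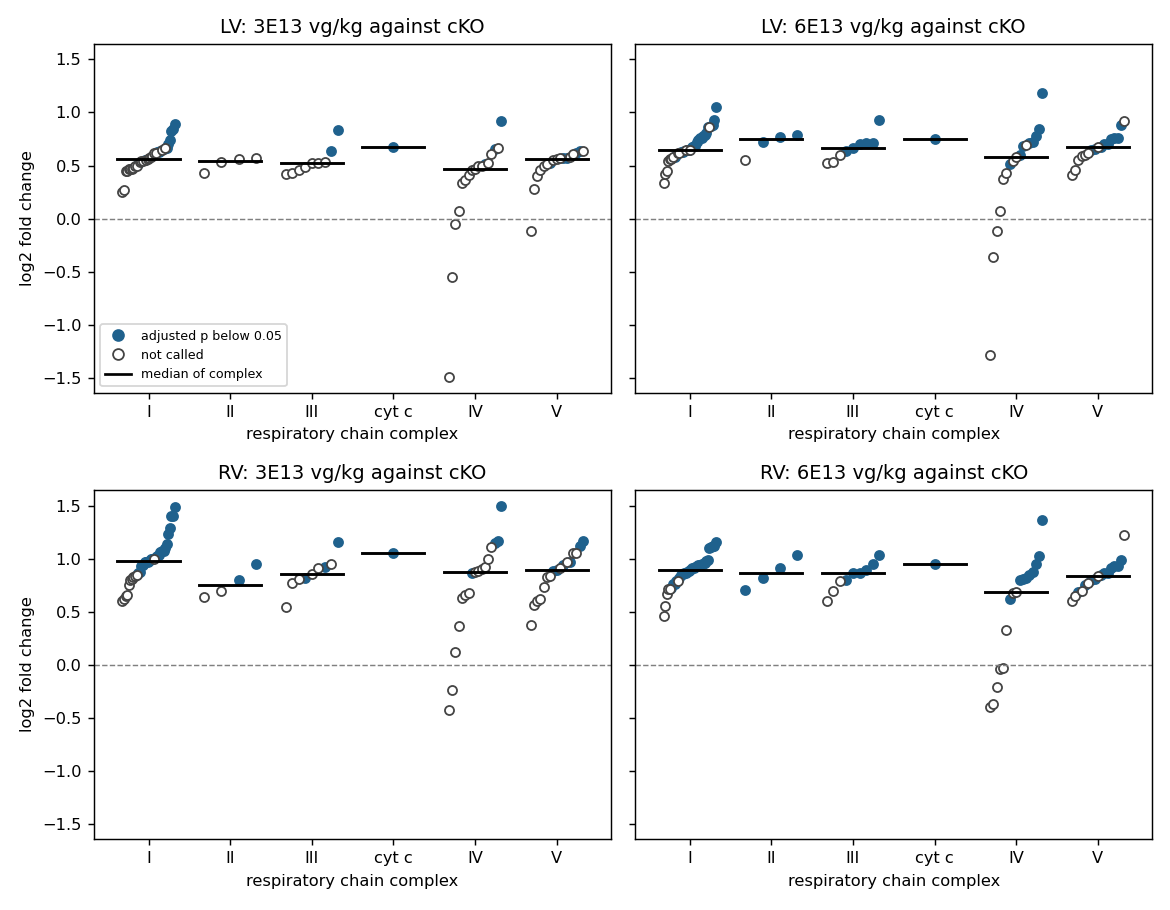
Log2 fold change of each tested subunit in treated cKO hearts against cKO, by complex, for 3E13 (left) and 6E13 vg/kg (right) in LV (top) and RV (bottom), with filled points for an adjusted p below 0.05 and bars for complex medians; Ndufa9 is not drawn. Complex medians lie between 0.47 and 0.75 in LV and between 0.69 and 0.97 in RV.

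These counts moved with single libraries. Counts with libraries left out are given without the share of all genes called in the same fit, so they are not set against a background. For 3E13 in LV the count was 63 without cKO animal 180, 10 without cKO animal 257, and 8, 11, 7 and 4 without 3E13 animals 181, 182, 252 and 253. For 6E13 in LV it was 28 without cKO animal 257, and 23, 26 and 7 without 6E13 animals 250, 631 and 645. For 3E13 in RV it was 69, 23 and 13 without cKO animals 180, 257 and 264 and 0 without either 3E13 animal, and for 6E13 in RV it was 30 and 16 without 6E13 animals 631 and 645. Without the 2 cKO RV libraries with most Myl7 the RV counts were 73 and 72. Fitted on the 2 groups compared alone, 0 members were called with 3E13 in either ventricle, where 0.112% of genes in LV and 0.237% in RV were called higher, and 0 with 6E13 in LV, where 0.708% were, by edgeR. With limma on log2(TPM + 1) 2 members rose and 4 fell with 3E13 in LV, where 0.884% of genes were called higher and 20.8% lower. The members' median stayed above zero in the treated comparisons when single libraries were left out.

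No subunit was called between treated and WT hearts, or between the doses, by the edgeR test with all 4 groups in 1 model. That model gives the groups 1 shared estimate of the spread of each gene. The subunits' percentage of non-mitochondrial counts had an SD of 0.42 in cKO LV, 0.07 in 3E13 LV, 0.08 in 6E13 LV and 0.03 in WT LV. The effect of this unequal spread on the calls was not tested. Against WT 0 of 83 LV members were called with 3E13, where 0.53% of genes were called lower, and 11 had an unadjusted p below 0.05, beside 16.6% of all genes. With 6E13 these numbers were 0 and 0, where 0.00609% of genes were called lower and 6.25% had such a p. In RV 0 of 82 were called with either dose, at backgrounds of 1.58% and 0.0231%, and 9 had an unadjusted p below 0.05 with each, beside 21.9% and 12.1% of all genes. DESeq2 called 1 member lower in LV and 3 in RV with 3E13, and 0 with 6E13. Fitted on the 2 groups alone, edgeR called 31 members lower with 3E13 in LV and 6 in RV, where 5.15% and 3.82% of genes were called lower. The limma fit on log2(TPM + 1) called 0 lower in each of these comparisons and 1 higher with 3E13 in RV. The medians against WT were -0.23 (3E13) and -0.13 (6E13) in LV and -0.33 and -0.42 in RV, where they were -0.16 and -0.25 without WT animal 647, and 79 and 74 of 83 members in LV and 75 and 80 of 82 in RV were below zero. A missed threshold does not show that treated hearts had regained the WT level.

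Sdha was the lowest against WT with 3E13 in RV, at -0.87 ± 0.29 (adjusted p = 0.0987), with both 3E13 libraries at 506 and 511 CPM, below the 3 WT libraries. In LV Sdha was at -0.47 ± 0.21 with 3E13 (adjusted p = 0.277) and -0.25 ± 0.23 with 6E13 (adjusted p = 0.994). Cox7a1 was at -0.41 ± 0.19 and -0.14 ± 0.21 against WT in LV and -0.52 ± 0.36 and -0.65 ± 0.32 in RV. Ndufs8 was at -0.46 ± 0.24 and -0.30 ± 0.26 in LV and -0.42 ± 0.29 and -0.66 ± 0.26 in RV. Between the doses 0 members were called in either ventricle by edgeR, DESeq2 or limma, where 0.0122% of genes were called higher in LV and 0% in RV. The member medians of 6E13 against 3E13 were 0.12 in LV and -0.09 in RV, with 1 member in LV and 0 in RV at an unadjusted p below 0.05, beside 5.56% and 8.65% of all genes.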

How the data were processed

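RNA from left and right ventricle was sequenced in 28 libraries of 16 mice. The authors trimmed reads with fastp, quantified them with Salmon 1.8.0 against GRCm39 transcripts of GENCODE and summed them per gene with tximport. The deposited values are expected counts (not whole numbers), TPM and effective transcript lengths per gene. The labels name both polyA RNA and a total RNA kit. Expected counts were rounded and tested per ventricle with edgeR 4.0.16 (R 4.3.3), all 4 groups in 1 model, after the low-count filter filterByExpr and TMM scaling, with the quasi-likelihood F test and Benjamini-Hochberg adjustment over all genes, called below 0.05. Comparisons between ventricles had the animal as a block, since both libraries came from the same heart. TPM, the authors' values per length, were used between genes and for isoform ratios (pseudocount 0.1, exact permutation tests). Genes were named by rule: isoform pairs, complex II, Cyc1, Cycs, extremes and smallest adjusted p per complex, members not called and, in treated hearts, the 4 smallest adjusted p. Alternatives used DESeq2 1.42.0 and limma 3.58.1. The edgeR script was tested on simulated data. Members and lists were chosen with earlier results of these data known, and the options without the Myl7-rich libraries, and the RV shares of WT without animal 647, were chosen after seeing the data. The limit given for a count of 0 covers counting error only, and ± values are SDs between libraries or SEs of the fit.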

Additional observations from a re-analysis of the deposited data

Results flagged for a closer look

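Of 171 groups of 4 or more libraries checked member by member, 11 held a library whose gap to the others was large for the group's range. Chance gives about 1 in 20 for independent groups. The members moved together across libraries, so this count cannot be judged against that rate. In WT LV animal 637 stood apart for Atp5g2 (0.630 CPM, the rest 2.50 to 3.12), Cox4i1 (442 CPM, the rest 398 to 405) and Ndufs7 (115 CPM, the rest 104 to 107). In cKO LV animal 177 was far below the others for Cox7a2l (47.3 CPM, the rest 107 to 109) and Cyc1 (42.5 CPM, the rest 90.2 to 96.6). The same animal was lowest for Cox7a2l in cKO RV, at 66.8 CPM with the rest at 108 to 114. In cKO RV animal 180 held 3.79 CPM of Atp5g2, with the rest at 0.171 to 0.615. With 3E13 in LV animal 182 was low for Cox4i2 (1.95 CPM, the rest 4.54 to 5.03) and high for Uqcr10 (79.2 CPM, the rest 51.2 to 54.3). Ndufa9 was at 0.110 CPM in WT LV animal 636 and at 0.660 CPM in 3E13 LV animal 181, and listed at 0 in the other libraries of those groups.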

How the results depend on the processing

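The fall in cKO against WT kept its direction under every alternative run, with 69 to 76 members in LV and 72 to 77 in RV when single libraries were left out. With limma on log2(TPM + 1) it counted 25 in LV and 40 in RV, and without mitochondrial transcripts 44 in LV. For 3E13 against cKO the counts were 2 (LV) and 7 (RV) on log2(TPM + 1), 4 (LV) without mitochondrial transcripts, 0 and 0 with only the 2 groups compared, 48 and 67 with DESeq2, 11 (LV) with length offsets and 73 (RV) without the 2 cKO libraries with most Myl7. For 6E13 against cKO they were 4 (LV) and 16 (RV) on log2(TPM + 1), 16 and 35 without mitochondrial transcripts, and 0 (LV) with only the 2 groups compared. For 3E13 against WT they were 31 (LV) and 6 (RV) with only the 2 groups compared, and 1 and 3 with DESeq2. Leaving out single libraries gave 4 to 63 (LV) and 0 to 69 (RV) for 3E13 against cKO and 7 to 73 (LV) and 16 to 76 (RV) for 6E13 against cKO. Where a group kept 1 library, it was assumed to vary like the others. Where no share of all genes called is given, these counts are not set against a background. The causes were not tested.

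The isoform ratios kept their direction, from -1.20 to -0.69 (LV) and -1.79 to -1.54 (RV) for Cox6a, -0.81 to -0.67 and -1.02 to -0.73 for Cox7a, and -1.23 to -0.71 and -1.64 to -1.40 for Cox8. With fewer libraries the exact test could often not reach the threshold. Without the animal as a block 0 members were called between the ventricles, for the cKO effect (3 at an unadjusted p below 0.05, against 56 with the block) and in WT hearts (2 against 5).

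Some single members turned sign. On log2(TPM + 1), cKO against WT, these were Cox4i2 in RV (0.29), Cox6b1 (0.094 in LV, 0.18 in RV), Cox6b2 in RV (0.37), Cox7a2l (0.12, 0.34), Cox8a (0.51, 0.88) and Ndufa11 in RV (0.012), and for 3E13 against cKO Ndufs1 in RV (-0.038). Without mitochondrial transcripts these were Cox6b2 in RV (0.17) and Cox8a (0.33, 0.53). With single libraries left out, Cox6a1 in LV ran from -0.032 (without cKO 177) to 0.12 and was at -0.000429 without WT 647. Cox8a ran from -0.11 to 0.0077 (without cKO 177) in LV and from -0.21 to 0.18 (without WT 647) in RV, with 0.024 there without cKO 177. Cox6b2 in RV ran from -0.46 to 0.39 (without WT 637), with 0.16 without cKO 257, and was at 0.22 without the libraries with most Myl7. Cox6b2, Atp5g2, Ndufa4 and Ndufa9 stood at a few CPM or less, where counting error is largest in proportion.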
